A study of Mus musculus with 12 samples.

Results

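The regions described here are TET2 binding sites that lay inside the body of a protein-coding gene and were found in cultured myeloid cells but not in cultured acute myeloid leukemia (AML) cells. There were 5536 such regions, of 18532 myeloid sites and of 25309 sites in both lists together on chromosomes 1 to 19. They were selected on the positions in both deposited site lists, which are measured values: a myeloid site was kept if it shared no base pair with an AML site, if its midpoint lay inside a protein-coding RefSeq gene, and if that midpoint was over 1 kb from every start and end coordinate of a protein-coding gene. The number of the regions, their place in genes and the absence of an AML site at them follow from that choice and are given as a description. The member nearest to a gene coordinate was 1004 bp away, and the nearest unshared site in a gene on the other side of that limit was at 999 bp. The member nearest to an AML site was separated from it by 25 bp, while the shared gene-body site with the least overlap had 13 bp in common with an AML site (median of all shared gene-body sites, 700 bp).

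The assay was chromatin immunoprecipitation sequencing with a polyclonal antibody raised to N-terminal TET2 protein, and the study's title concerns enhancers bound by TET2 and how transcription factors are recruited there. The myeloid culture was of mouse hematopoietic cells immortalized with the retroviral transgene MigR1-AML1-ETO, in the genotypes Tet2fl/fl; AML1-ETO (called wild type in the titles) and Tet2-/-; AML1-ETO. The AML culture carried no transgene and had the genotypes written Npm1+/cA; Fl3+/ITD and Npm1+/cA; Fl3+/ITD; Tet2-/-. Each culture gave 2 wild-type and 2 Tet2-knockout TET2 libraries, 1 input and 1 IgG library, 12 in all. The input and IgG libraries came from the wild-type genotypes, and all cells grew in stem cell factor (50 ng/ml), interleukin 3 (10 ng/ml) and interleukin 6 (10 ng/ml). The labels do not say whether replicates were separate cultures or whether a line was 1 clone. Because the transgene was in 1 culture and the Npm1 and Flt3 alleles in the other, the transgene, these alleles and the cultures cannot be told apart. The files give 1 list of site positions per culture, with no score, height or value for any library, so depth is unknown and replicate error cannot be given for a site. The labelled cell types could not be checked against markers. A site that is missing from the shorter AML list (6777 merged sites) can lack binding in the AML cells or have fallen below the unknown limit of that list.

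TET2 is a dioxygenase that oxidizes the methyl group of methylated cytosine in DNA, the step that opens the way to demethylation, and it is among the genes most often mutated in myeloid neoplasms. It lacks the CXXC zinc finger by which its relatives TET1 and TET3 bind CpG-containing DNA, and it is thought to reach chromatin largely through partner proteins. AML1-ETO joins the DNA-binding part of the transcription factor RUNX1 to a corepressor. The body of a mammalian gene is mostly intron and can hold enhancers, which act on the same or on other genes, and further transcript starts, which give shorter products of the same gene.

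Members on annotated transcript starts inside their gene were the ones for which sequence was at hand, and 8 of them are shown to illustrate the contrast in CpG content described below. Each line gives the 250 bases before the start, 5′ to 3′ on the strand of the gene, from RefSeq (GRCm38.p6), with every CpG dinucleotide in capitals. The whole window, and 50 bases after the start, lay within a member site. The starts of Gata2, Tal1, Dgkz, Sin3a and Gse1 were rich in CpG, and those of Fcgr3, Wipf1 and Pik3cd poor. The starts shown for Dgkz, Fcgr3 and Pik3cd were the outermost listed ones of their gene. All 8 were picked after the values were seen, from the named genes and the genes of the functional lists. The sequences come, in order and with the strand in parentheses, from chr6:88198414-88198663 (plus), chr4:115057561-115057810 (plus), chr2:91963564-91963813 (minus), chr9:57076126-57076375 (plus), chr8:120537159-120537408 (plus), chr1:171059404-171059653 (minus), chr2:73453890-73454139 (minus), chr4:149698709-149698958 (minus).
Gata2: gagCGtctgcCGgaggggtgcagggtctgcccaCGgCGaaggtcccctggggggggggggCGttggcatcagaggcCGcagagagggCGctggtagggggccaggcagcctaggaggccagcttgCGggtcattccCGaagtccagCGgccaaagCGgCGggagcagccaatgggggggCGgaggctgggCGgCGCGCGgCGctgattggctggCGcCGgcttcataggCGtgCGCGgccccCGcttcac
Tal1: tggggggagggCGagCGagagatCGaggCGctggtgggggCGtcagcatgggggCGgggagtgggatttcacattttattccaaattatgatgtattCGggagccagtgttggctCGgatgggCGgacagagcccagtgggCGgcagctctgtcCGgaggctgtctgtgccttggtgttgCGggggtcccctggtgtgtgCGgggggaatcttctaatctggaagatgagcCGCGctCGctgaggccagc
Dgkz: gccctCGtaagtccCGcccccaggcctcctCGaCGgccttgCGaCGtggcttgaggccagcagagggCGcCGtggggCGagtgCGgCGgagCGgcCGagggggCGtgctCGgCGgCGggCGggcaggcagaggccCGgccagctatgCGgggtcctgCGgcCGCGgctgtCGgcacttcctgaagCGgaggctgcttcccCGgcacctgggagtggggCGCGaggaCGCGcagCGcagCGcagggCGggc
Sin3a: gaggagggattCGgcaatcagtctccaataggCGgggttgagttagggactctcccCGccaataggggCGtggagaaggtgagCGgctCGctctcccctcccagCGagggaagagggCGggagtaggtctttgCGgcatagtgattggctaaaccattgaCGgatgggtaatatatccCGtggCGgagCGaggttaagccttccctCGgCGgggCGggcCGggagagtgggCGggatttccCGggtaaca
Gse1: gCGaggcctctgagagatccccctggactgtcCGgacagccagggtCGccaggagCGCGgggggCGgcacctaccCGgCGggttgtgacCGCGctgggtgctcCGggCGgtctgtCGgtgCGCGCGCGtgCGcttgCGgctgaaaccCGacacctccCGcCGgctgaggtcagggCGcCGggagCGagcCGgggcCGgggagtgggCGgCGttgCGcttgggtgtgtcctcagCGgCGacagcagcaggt
Fcgr3: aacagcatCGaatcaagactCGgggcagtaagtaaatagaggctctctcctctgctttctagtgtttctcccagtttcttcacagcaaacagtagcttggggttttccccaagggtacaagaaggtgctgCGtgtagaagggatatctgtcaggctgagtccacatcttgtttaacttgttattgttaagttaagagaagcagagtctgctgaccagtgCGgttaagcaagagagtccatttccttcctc
Wipf1: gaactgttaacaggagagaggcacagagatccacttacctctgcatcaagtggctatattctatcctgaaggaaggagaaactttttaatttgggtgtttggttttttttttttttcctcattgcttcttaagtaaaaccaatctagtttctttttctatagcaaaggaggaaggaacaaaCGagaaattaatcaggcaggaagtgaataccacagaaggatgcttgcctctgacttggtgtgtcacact
Pik3cd: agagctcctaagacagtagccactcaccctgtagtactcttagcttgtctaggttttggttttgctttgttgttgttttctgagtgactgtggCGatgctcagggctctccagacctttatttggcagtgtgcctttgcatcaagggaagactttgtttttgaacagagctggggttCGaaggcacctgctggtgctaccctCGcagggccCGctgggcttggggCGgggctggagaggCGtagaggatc

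The first 5 sequences hold 24, 16, 33, 19 and 32 CpG dinucleotides, and the last 3 hold 4, 1 and 6. Gata2 and Tal1 encode transcription factors of blood stem and progenitor cells, Dgkz a diacylglycerol kinase, Sin3a a corepressor scaffold, and Gse1 a protein found with corepressor complexes. Fcgr3 encodes a low-affinity receptor for IgG, Wipf1 a partner of the actin regulator WASP, and Pik3cd the leukocyte catalytic subunit of phosphoinositide 3-kinase.

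Gene bodies were the commonest location of the myeloid-only sites. Of 13667 myeloid-only sites, 40.5% were members (exact 95% interval 39.7 to 41.3), 32.6% lay between genes and 26.9% within 1 kb of a gene start or end. The gene-body share was higher among the 4865 shared sites, 45.8% (44.4 to 47.2). Of these, 44.0% lay between genes and 10.1% at gene starts or ends. Per unit of available sequence, members reached 5.88 sites per Mb of gene body, and myeloid-only sites between genes 3.21 per Mb. The shared sites had 2.37 per Mb in gene bodies and 1.55 per Mb between genes. The density of members ran from 4.75 per Mb of gene body on chromosome 16 to 8.22 per Mb on chromosome 11, and it was above the myeloid-only intergenic density of the same chromosome on each of the 19 chromosomes. All intervals in this text cover counting error over sites only.

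Members were narrow sites. Their median width was 691 bp (quartiles 658 and 742 bp), close to the 687 bp of myeloid-only intergenic sites and below the 756 bp (704 and 822 bp) of shared gene-body sites. Only 191 members, 3.45% (2.99 to 3.97), were at least 1 kb wide, against 163 of 2229 shared gene-body sites, 7.31% (6.27 to 8.47). The odds ratio of members over shared sites was 0.453 (0.363 to 0.565; Fisher's exact test, two-sided, adjusted p = 6.44e-12 over 8 tests). A wider site meets an AML site more easily, and the part of the choice of members in this difference was not tested. Against myeloid-only intergenic sites, of which 2.74% were this wide, the difference did not pass (odds ratio 1.27, 1.00 to 1.61; Fisher's exact test, adjusted p = 0.0578). Most wide sites came from merging: 145 of the 191 wide members and 120 of the 163 wide shared sites joined more than 1 deposited row. With each deposited row as its own site the shares were 0.961% and 1.90% (odds ratio 0.500, 0.330 to 0.761; unadjusted Fisher's exact p = 0.000819). Sites lie in clusters and share neighbours, so the p-values of all tests over sites are too small by an unknown amount.

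**Figure D1:**
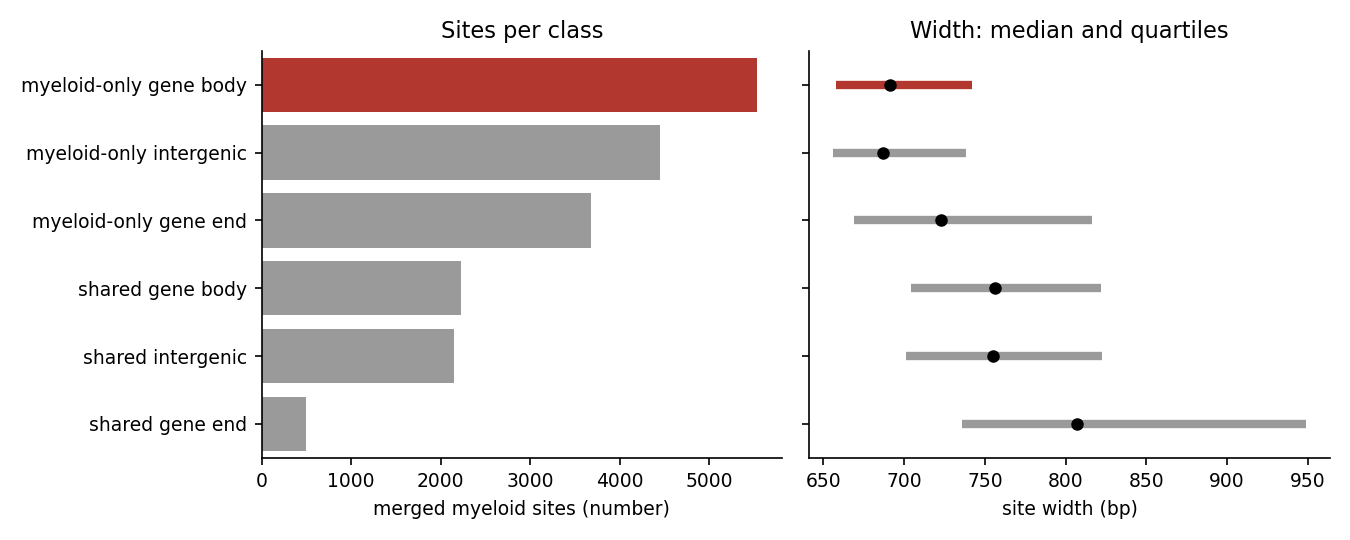
Left, number of merged myeloid sites in each class by sharing with the AML list and by location (red, the members; grey, the other classes). Right, site width in bp, with the median as a point and the quartiles as a bar; members had a median of 691 bp and shared gene-body sites one of 756 bp.

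The widest members lay in genes of different kinds, and 4 of the 5 widest were merged from neighbouring deposited rows. The widest, 2619 bp and a single row, was at chr17:29886184-29888802 in Mdga1, which encodes a cell-surface protein of the immunoglobulin superfamily. This site ran past the start coordinate of the gene, 29888583 on the minus strand, and its midpoint lay 1.09 kb inside. It also covered an annotated start 0.701 kb into the gene. A site of 2084 bp, merged from 3 rows, at chr17:84185369-84187452 lay in Zfp36l2, which encodes an RNA-binding protein that promotes mRNA decay and is 4.02 kb long. Another pair among the 5 widest were neighbours in Gata2, each merged from 2 rows, 1872 bp at chr6:88198309-88200180 and 1830 bp at chr6:88195990-88197819. Their nearest AML sites were 23.6 and 21.3 kb away.

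Most members had another myeloid site within 50 kb. The median gap to the next myeloid site was 11.3 kb (quartiles 3.54 and 32.5 kb), 31.2% of members had one within 5 kb and 83.3% within 50 kb. The nearest myeloid site was another member for 2665 of the 5536 (48.1%), although members made up 29.9% of all myeloid sites, and a shared gene-body site for 1012 (18.3%). Members are confined to gene bodies by the rule, and the part of this in the count was not tested. Within 10 kb, 46.8% of members (45.5 to 48.1) had a neighbour, fewer than the 51.7% (49.6 to 53.8) of shared gene-body sites (odds ratio 0.820, 0.743 to 0.906; adjusted p = 0.000130 by Fisher's exact test). The share in myeloid-only intergenic sites was 44.8%, and that difference did not pass (odds ratio 1.08, 0.998 to 1.17; adjusted p = 0.0628 by Fisher's exact test). The nearest AML site was a median of 47.5 kb from a member (quartiles 14.0 and 135 kb). It was within 1 kb for 173 members, within 5 kb for 652 (11.8%) and within 50 kb for 51.1%. The corresponding shares of myeloid-only intergenic sites were 12.4% within 5 kb and 52.2% within 50 kb.

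Members lay within 10 kb of the start of their gene more often than shared sites did, a difference that did not pass once sites on annotated transcript starts were left out. Strand was known for the host genes of 4429 members and 1772 shared gene-body sites. The median distance from the gene start to a member was 25.2 kb (quartiles 7.62 and 68.8 kb), and 60.1% of members lay nearer to the start than to the end of transcription. For shared gene-body sites the median was 28.6 kb (10.5 and 76.9 kb), with 56.2% nearer to the start. Within 10 kb of the start lay 1307 members, 29.5% (28.2 to 30.9), and 430 shared sites, 24.3% (22.3 to 26.3; odds ratio 1.31, 1.15 to 1.49; Fisher's exact test, adjusted p = 6.22e-05). Without the sites on annotated transcript starts, described below, the shares were 25.8% and 23.3% and the difference did not pass (odds ratio 1.14, 0.997 to 1.31; Fisher's exact test, unadjusted p = 0.0530). It also did not pass with sites kept over 5 kb from gene starts and ends (13.6% and 12.5%; odds ratio 1.10, 0.913 to 1.34; unadjusted Fisher's exact p = 0.327). Far positions were common in both classes: 779 members (17.6%) were over 100 kb from the start of their gene, and the farthest was 1333 kb away.

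**Figure D2:**
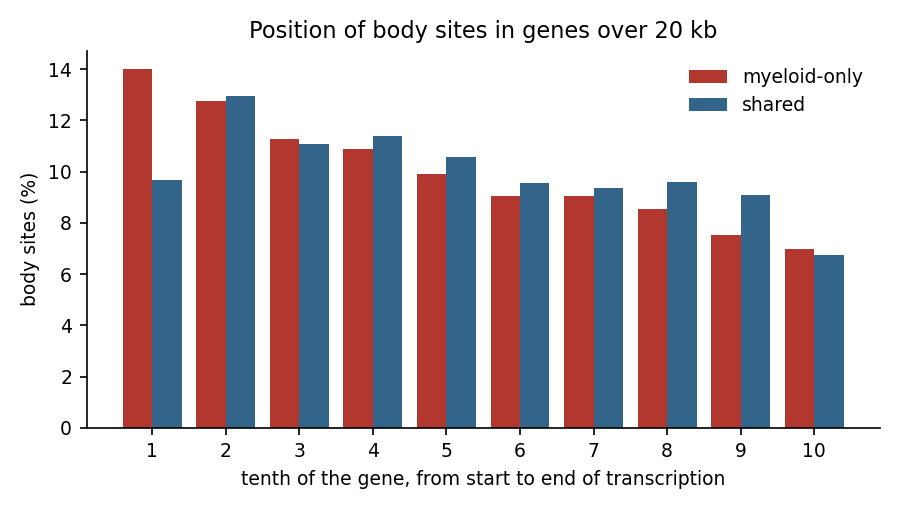
Share (%) of gene-body sites in each of 10 equal parts of genes over 20 kb long, from the start to the end of transcription; red bars are the 3853 members and blue bars the 1561 shared sites of such genes with known strand. Members fall from 14.0% in part 1 to 6.98% in part 10, and shared sites have 9.67% in part 1 and 6.73% in part 10.

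Members sat on annotated transcript starts inside genes more often than shared gene-body sites did. RefSeq start windows, from 250 bases before to 50 after a transcript start, met 463 members, 8.36% (7.65 to 9.12), and 64 of the 2229 shared gene-body sites, 2.87% (2.22 to 3.65). The odds ratio was 3.09 (2.36 to 4.09; Fisher's exact test, adjusted p = 6.48e-20); this comparison was chosen after the data were seen. Of the 463, 395 met a start of their own host gene and 68 only starts of other gene types such as long noncoding RNAs. Gene coordinates span every RefSeq model of a gene, predicted ones included. For 232 of the 395 the start that was met was the outermost in the table, so the gene's coordinates ran past its listed starts, and for 163 another listed start lay further out. Counting only starts with another one further out, 3.36% of members and 1.26% of shared sites met one (odds ratio 2.73, 1.82 to 4.24; unadjusted Fisher's exact p = 5.66e-08). The starts lay a median of 4.77 kb into the gene (quartiles 1.93 and 17.6 kb), and 33 were over 50 kb in, up to 709 kb in Fhit, which encodes a diadenosine triphosphate hydrolase.

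The starts under members were rich in CpG. A window was called CpG-rich at an observed to expected CpG ratio of at least 0.6. The test below was also chosen after the data were seen. It covered 461 of the 463 members on a start window. With 1 window per site, 298 of 461 members (64.6%, 60.1 to 69.0) lay on a CpG-rich start and 15 of 64 shared sites (23.4%, 13.8 to 35.7; odds ratio 5.95, 3.16 to 11.8; Fisher's exact test, adjusted p = 1.23e-09). Windows met by members held a median of 21 CpG dinucleotides (quartiles 11 and 29) at a GC content of 62.0%, and windows met by shared gene-body sites a median of 6 (3 and 21) at 56.3%. Over all 6458 start windows inside gene bodies, the median was 6 CpG dinucleotides and 8.49% were met by a member. Members met 370 of the 1621 CpG-rich windows among these (22.8%) and 178 of the 4837 others (3.68%). Shared gene-body sites met 1.17% of the CpG-rich and 1.08% of the other windows, near-equal shares. For comparison, the 3453 windows met by myeloid-only sites at gene starts or ends had a median of 24 CpG dinucleotides. Of the 395 members on a start of their own gene, 232 met the outermost listed one. CpG content was not compared without these.

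Short letter patterns of blood transcription factors were counted in the same windows on both strands. The RUNX pattern TGTGGT was in 14.1% of the 559 windows met by a member, 20.8% of the 72 met by a shared gene-body site and 16.7% of all 31396 windows. The ETS pattern GGAAGT was in 31.1%, 44.4% and 23.9%, in that order. The C/EBP pattern TTGCNNAA was in 10.6%, 23.6% and 10.9%, the GATA pattern AGATAA in 6.26%, 6.94% and 11.2%, and the AP-1 pattern TGANTCA in 6.26%, 8.33% and 7.84%. For shared sites these shares rest on 15, 32, 17, 5 and 6 windows, from RUNX to AP-1. Over the 6458 windows inside gene bodies they were 18.2%, 21.4%, 10.9%, 11.4% and 8.11%. In the 3453 windows met by myeloid-only gene-end sites they were 12.9%, 35.3%, 8.17%, 4.78% and 3.94%. None of these patterns contains another. A match is a description of the letters and not a bound site. Sequence of members away from annotated starts was not analysed here.

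The genes with such an internal start under a member included the following genes of the functional lists. In Gata2 (chr6:88193891-88207032) the start 4.77 kb into the gene lay in the member of 1872 bp. In Tal1 a member of 658 bp at chr4:115057484-115058141 covered a start 1.39 kb into the gene, 96.0 kb from the nearest AML site. A member of 757 bp at chr9:20952535-20953291 held 2 starts of Dnmt1, the maintenance DNA methyltransferase gene, 7.27 and 6.91 kb into the gene. In Hdac7, which encodes a class IIa histone deacetylase, 2 starts about 13.0 and 12.7 kb into the gene lay under 1 member of 716 bp. In Sin3a the start was 4.39 kb in, and the nearest AML site was 157 kb away. The apoptosis genes Mcl1, Bcl2l1 and Bcl2l11 each had a start under a member, 1.78, 2.08 and 1.54 kb into the gene, and so did the signalling genes Stat5a (1.13 kb) and Socs3 (0.970 kb). In Mcl1, Bcl2l1 and Socs3 that start was the outermost listed one. In all, 23 of the 203 genes with a member in the functional lists described below had an own start of this kind, a share near that of all genes with a member (390 of 3445, 11.3%). Of microRNA hairpins, 6 of the 919 in the RefSeq table met a member (Mir12181, Mir3075, Mir5124a, Mir5620, Mir7687 and Mir8094).

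Members were spread over many genes. Of 18374 protein-coding genes over 2 kb long, 3445 held at least 1 member, which is 18.7%, and 525 (2.86%) held 3 or more. A single member was found in 2293 genes, 2 in 627 and 5 or more in 128. The 525 genes contained 2042 of the 5536 members. Only 63 members lay in more than 1 gene. Of the 3445 genes, 901 (26.2%) also had a shared site in the body. They were 54.3% of the 1658 genes with such a shared site. An AML-only site in the body was present in 395 of the 3445 genes and in 744 of all 18374. A myeloid site within 1 kb of the start or end was present in 1061 of the 3445 (30.8%), against 22.8% of the genes without a member. In 1619 of the 3445 genes the member or members were the only TET2 site counted in the body or at its ends. Gene-end sites per gene were counted in the myeloid list. Gene-end occupancy did not separate genes of members from genes of shared sites: it was present in 31.3% of 2544 genes with members alone and 31.0% of 757 genes with shared body sites alone (odds ratio 1.01, 0.845 to 1.21; Fisher's exact test, adjusted p = 0.929), so that a difference in odds of up to 1.21 times lies within the interval.

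Long genes held members more often but at lower density. The share of genes with a member rose with length, from 1.84% of genes of 2 to 5 kb and 11.4% of genes of 10 to 20 kb to 43.7% of genes of 100 to 200 kb and 47.7% of genes over 500 kb. Genes of 2 to 5 kb had 12.2 members per Mb, genes of 50 to 100 kb 7.66, genes of 200 to 500 kb 3.92 and genes over 500 kb 1.42. Shared gene-body sites had 3.50 per Mb in genes of 2 to 5 kb, at most 4.05 (10 to 20 kb), 1.87 in genes of 200 to 500 kb and 0.588 in genes over 500 kb. The genes with a member had a median length of 55.5 kb, and all 18374 genes one of 21.4 kb. For this reason each group of genes below is set beside genes of like length.

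**Figure D3:**
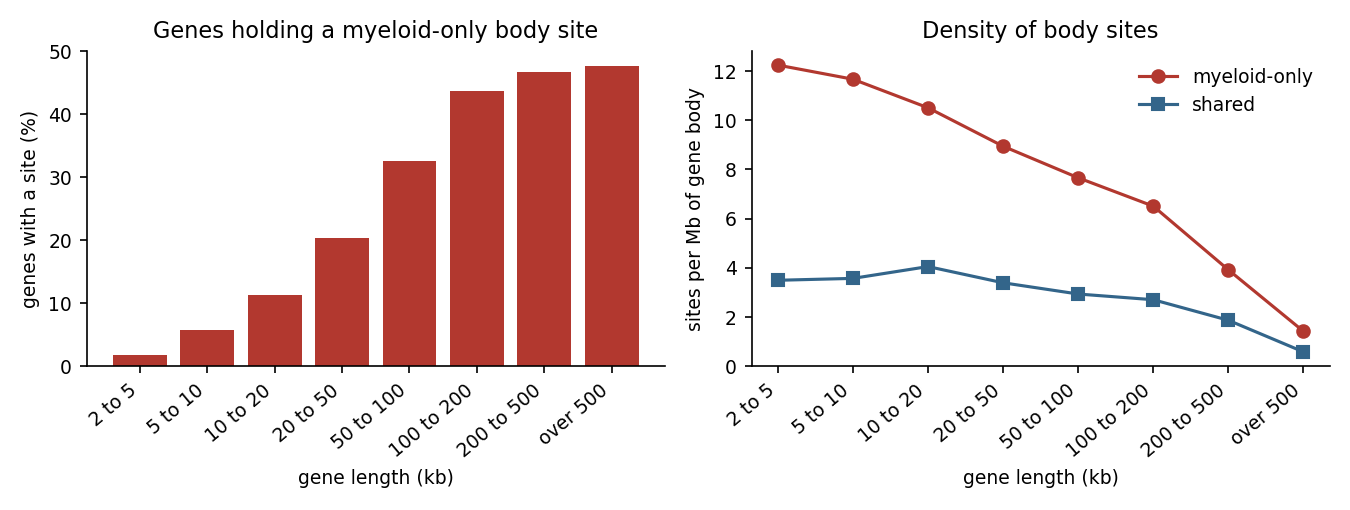
Left, share (%) of protein-coding genes in each length class (kb) that held at least 1 member. Right, members (red) and shared gene-body sites (blue) per Mb of gene body by length class; the share of genes rises from 1.84% to 47.7% while the density of members falls from 12.2 to 1.42 per Mb.

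The 10 genes with most members, with ties taken in order of symbol, were each over 100 kb long. Of the 4 genes with 8 members, the last by symbol fell outside these 10. Gse1 (chr8:120228501-120581383, 353 kb) led with 14 members and 4 shared body sites. Its members began 48.1 kb from the gene start and ended at 311 kb, with 4 of them between 140 and 150 kb and 3 between 307 and 311 kb, where 2 annotated starts at 307 and 309 kb were met. Pde4d, a cyclic AMP phosphodiesterase gene of 1302 kb (chr13:108654177-109955969), had 13 members, 4 shared and 4 AML-only body sites. Foxp1 (chr6:98925342-99522746), a forkhead factor gene of lymphoid and myeloid cells, had 11 members, 2 shared and 3 AML-only sites; 10 of its members lay between 32.6 and 323 kb from the start and 1 at 563 kb. The member at chr6:99212251-99212964 was only 33 bp from an AML site, whereas the one at chr6:99489752-99490451 was 145 kb from the nearest.

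Further genes had 8 or 9 members. Prkcb (chr7:122289104-122634402), the beta isoform of protein kinase C, had 9 members and 0 shared sites in its body, and all 9 lay in the early part of the gene, between 21.3 and 170 kb from the start of its 345 kb. It also had 2 AML-only body sites. Mctp1, Syne1 and Zfhx3 had 9 members each, with 1, 3 and 3 shared sites. Arid1b, a subunit of SWI/SNF remodelling complexes, had 8 members from 196 to 334 kb into its 353 kb and 1 shared site. Hivep1 (chr13:42051899-42185030), a zinc finger factor gene, had 8 members, no shared and no AML-only site, and its members were 108 to 164 kb from any AML site. Rad51b, a gene of homologous recombination, had 8 members, 1 shared and 2 AML-only sites. Of the 525 genes with at least 3 members, 187 had neither a shared nor an AML-only body site, so most had at least 1. Of all 3445 genes with a member, 2544 had no shared body site.

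Shorter genes had the members most densely packed. Of genes with at least 3 members, Slc39a4, a zinc transporter gene of 6.12 kb, had the highest density with 3 members, at chr15:76614481-76615167, chr15:76616248-76616980 and chr15:76617082-76617760. Sh2b1 (9.66 kb), an adaptor of tyrosine kinase signalling, had 3 members at 1.40, 4.19 and 6.29 kb from its start. Midn, Gata2, Per1, Nfil3, Fcgr3, Cd63, Chst13 and Kctd10 had 3 each in 12.4 to 16.9 kb, or 201 to 289 members per Mb, against 5.82 per Mb over all genes. Per1 encodes a component of the circadian clock and Nfil3 a basic leucine zipper repressor; their members lay 2.05, 3.69 and 4.98 kb, and 1.56, 2.27 and 6.01 kb from the start. In Gata2 the members lay 3.01, 5.35 and 9.30 kb from the start, next to a myeloid-only site at 0.576 kb, and the gene had no shared or AML-only body site. In Fcgr3 they lay 4.19, 5.43 and 6.48 kb from the start with gaps of 0.313 and 0.517 kb between them.

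The 5 densest windows of 50 kb held 7 members each. Plek (chr11:16971206-17008718, 37.5 kb) encodes pleckstrin, a major protein kinase C substrate of platelets and leukocytes, and held 7 members within 28.8 kb, at 3.65, 6.11, 7.58, 9.12, 20.9, 30.2 and 31.6 kb from its start, with no shared site. Irak2, a kinase gene of Toll-like and interleukin 1 receptor signalling, held 7 members in 44.1 kb and Lcp1, which encodes the leukocyte actin bundler L-plastin, 7 in 48.1 kb. A window on chromosome 17 held 6 members of Mapk14, the p38 alpha kinase gene, and 1 of its neighbour Slc26a8. The remaining window spanned 4 genes on chromosome 10, Sbno2, Stk11, Atp5d and Midn. The windows of Plek, Mapk14 and Stk11 contained 0 shared sites, that of Lcp1 1 and that of Irak2 2. AML-only sites were not counted in these windows. Mapk14 had 1 AML-only body site, and members of it lay only 0.142 and 0.868 kb from an AML site.

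**Figure D4:**
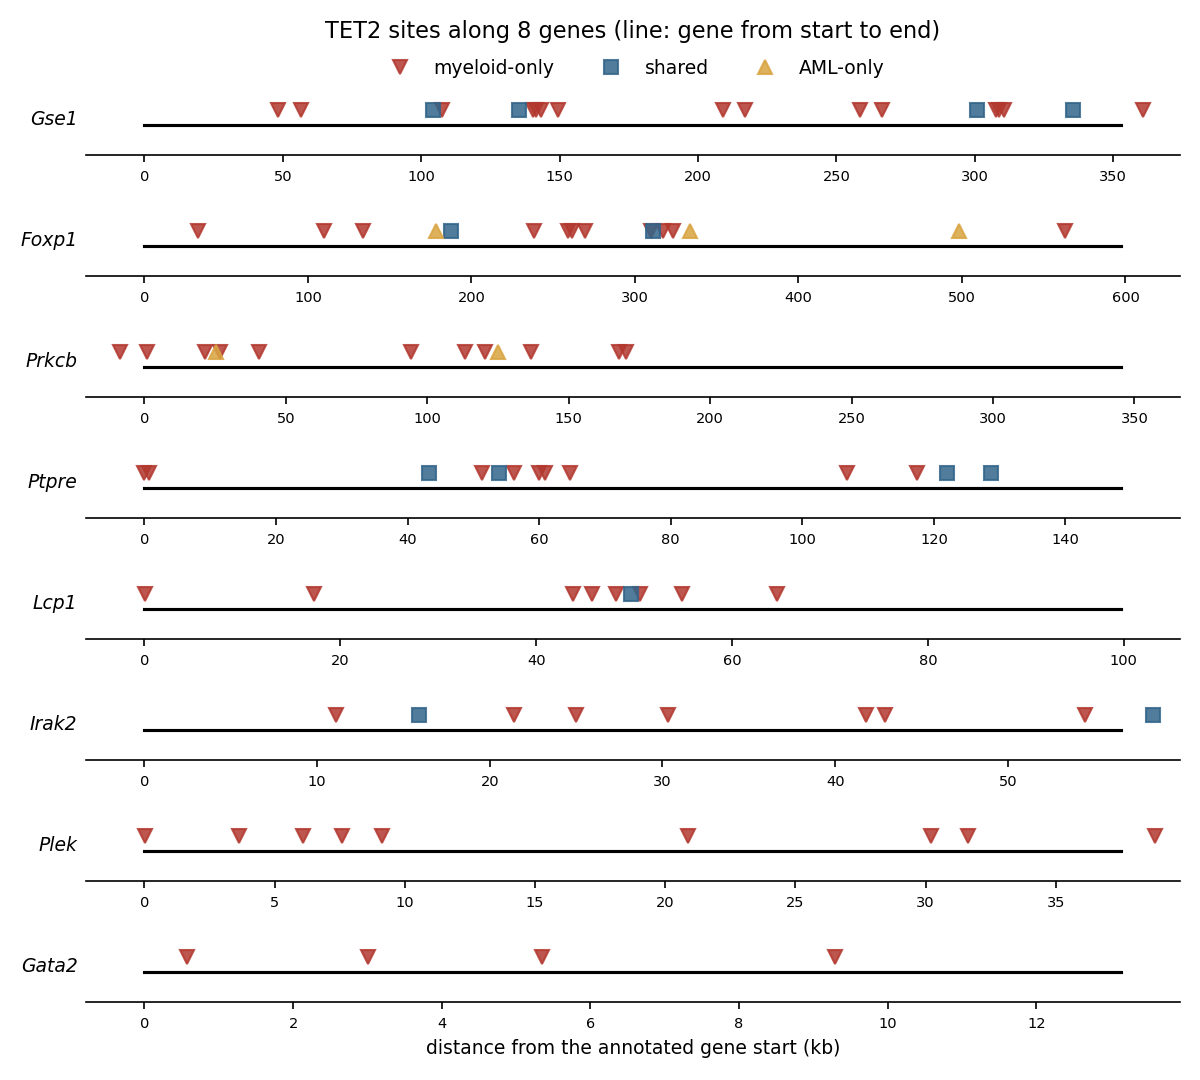
Midpoints of TET2 sites along 8 genes, in kb from the annotated start (line, gene body; red triangles, myeloid-only sites, including those at gene starts or outside the gene; blue squares, shared sites; yellow triangles, AML-only sites). Gse1 has 14 members in its body and Plek 7 in 37.5 kb; each panel has its own scale.

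Genes of blood cell regulation and signalling held members more often than genes of like length, and long neuronal genes held them about as often but at low density. The gene lists were chosen with earlier results of these data known, and their shares are descriptions beside the 18.7% of all eligible genes and the share of all genes in the same length classes. The median number of members per gene was 0.5 for cell cycle and apoptosis genes, 0 for the granule, lymphoid, neuronal and muscle lists and 1 for the others, against 0 over all eligible genes. The pattern was not shown to be particular to members. A shared body site lay in 21 of 44 blood transcription factor, 12 of 37 cytokine receptor signalling and 10 of 32 granule genes. The counts were 14 of 35 phosphoinositide and protein kinase C, 16 of 33 Ras, Rap and Arf, and 13 of 35 adhesion and cytoskeleton genes. They were 12 of 40 chromatin and 9 of 34 cell cycle and apoptosis genes. A shared body site lay in 3 of 30 lymphoid, 6 of 36 neuronal and 4 of 25 muscle genes, and in 1658 of all 18374. Shared sites were not set beside genes of like length. Blood transcription factors had a member in 28 of 44 genes (63.6%; genes of like length would give 13.8), with 14.9 members per Mb. Besides Foxp1, Etv6 and Erg, which are ETS factor genes important for blood stem cells, had 6 members each, with 1 and 2 shared sites. Runx1 and Runx2 had 5 members each, Runx1 beside 5 shared body sites. Ikzf2 had 4 members, Myb 3 and Stat3 2, each with no shared body site, and Spi1, which encodes the myeloid factor PU.1, had 3 members and 1 shared site. Pbx3 (201 kb) and Mef2a (145 kb) were the longest genes of this list with no member.

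Signalling genes downstream of growth factor receptors formed the next groups. Of cytokine receptor signalling genes, 19 of 37 (51.4%; 10.2 by length) held a member, at 18.7 per Mb. Ptpre, a receptor-type phosphatase gene, had 7 members and 4 shared sites within 148 kb. Lyn, a Src-family kinase gene, and Ptprj, a receptor-type phosphatase gene, had 5 members each and no shared site, and Jak1, a kinase of interleukin receptors, had 3 and none. Of phosphoinositide and protein kinase C genes, 25 of 35 (71.4%; 11.8 by length) held a member, at 14.3 per Mb. Prkch had 7 members, Dgkz 6 in 43.6 kb, and Inpp4a (111 kb) none, although it had 2 shared and 1 AML-only body sites. Fyn (196 kb) and Gab1 (116 kb) were the longest cytokine signalling genes with no member, and Mtor (109 kb) also had none.

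Ras, Rap and Arf regulators and genes of adhesion and the actin cytoskeleton held members in most of their genes. Of Ras, Rap and Arf regulators, 22 of 33 (66.7%; 11.5 by length) held a member; Agap1, Sipa1l1 and Spred2, an inhibitor of ERK signalling, had 5 each, and Rasal2 (277 kb) none. Of adhesion and cytoskeleton genes, 25 of 35 (71.4%; 10.2 by length) held one, at 23.6 per Mb. Lcp1 had 7, Myo1e, a myosin I gene, 6, and Apbb1ip, which encodes the integrin activator RIAM, 5.

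Products of granulocytes and monocytes are encoded by short genes, and these had the highest density of the 11 lists, 35.1 members per Mb, where all genes of 10 to 20 kb had 10.5. A member was present in 12 of 32 genes (37.5%; 3.97 by length). Srgn, whose product serglycin is the proteoglycan of secretory granules, had 4 in 33.6 kb, at 1.86, 15.8, 21.0 and 23.4 kb from its start. Fcgr3 had 3, and Alox15, a lipoxygenase gene, 2 with 2 shared sites. Adgre1 (125 kb), the gene of the macrophage marker F4/80, had no body site in either list, and Cpa3, a mast cell carboxypeptidase gene, had 1 shared site and no member.

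Chromatin and cell cycle genes also held members more often than genes of like length. Of genes of chromatin and DNA methylation enzymes, 24 of 40 (60.0%; 14.3 by length) had a member, at 9.81 per Mb. Hdac4, a class IIa histone deacetylase gene, had 5 members and 5 shared sites, and Chd7, a remodeller gene, 3 and 2. Kmt2c (227 kb) and Phf21a (181 kb) had none. Tet2 itself (chr3:133463677-133545136, 81.5 kb) held no member and no shared body site, and its 2 sites lay within 1 kb of the gene's ends. Of cell cycle and apoptosis genes, 17 of 34 (50.0%, with 7.14 by length) held a member, at 13.6 per Mb. Bcl2, which encodes an inhibitor of apoptosis, had 3 members 169 to 216 kb from any AML site, whereas Cdk6 had 3 members beside 3 shared sites and Ccnd3, a D-type cyclin gene, 3 beside 6.

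Lists of other lineages lay near genes of like length in their share of genes with a member. Of lymphoid genes, 8 of 30 (26.7%; 7.27 by length) had a member, at 4.84 per Mb. Tox, a factor of T cell development, had 3, and the B cell factor gene Ebf1 (390 kb) and the T cell gene Themis (215 kb) had none. Of 36 long neuronal genes, 15 (41.7%; 17.2 by length) had a member. These genes covered 46.9 Mb but contained 20 members, and Sox5 alone had 4 of them. Their density was 0.427 per Mb, where all genes over 500 kb had 1.42. Ptprd (2271 kb) and Lsamp (2197 kb) had none. Of muscle and heart genes, 9 of 25 (36.0%; 9.11 by length) had a member, at 2.65 per Mb, and 13 of their 24 members were those of Pde4d, which is also expressed outside muscle.

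**Figure D5:**
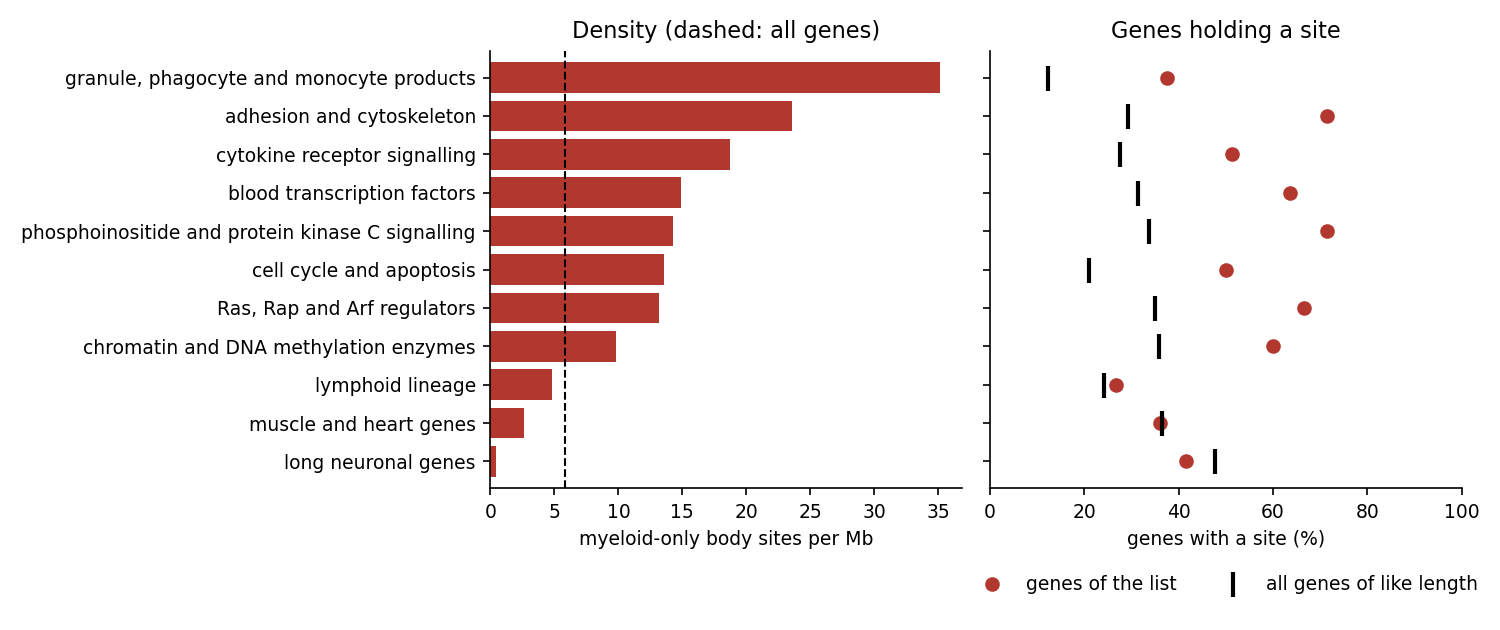
Left, members per Mb of gene body for 11 gene lists, with the 5.82 per Mb of all eligible genes as a dashed line. Right, share (%) of genes in each list that held a member (red points) beside the mean share of all genes in the same length classes (black bars); lymphoid, muscle and neuronal genes lie nearest to the black bars.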

How the data were processed

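The members and the gene lists were chosen with earlier results of these data known. The submitters' processing notes name the build mm10 and the tools Bowtie2, MACS2 and Trimmomatic. How replicates, knockout, IgG and input libraries entered the site calls, and at which thresholds, was not stated in the labels. The deposited lists hold chromosome, start and end of each site, and no other value. Starts may count from 0 or from 1, so positions can be off by 1 bp.

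Overlapping rows within a list were merged from 1 shared bp on (6877 AML rows into 6777 sites and 19411 myeloid rows into 18532, chromosomes 1 to 19). Genes and 300-base start windows came from RefSeq (GRCm38.p6, the coordinates of mm10); strand was listed for 79.6% of the 20665 protein-coding genes. Neither exons nor a genome sequence was at hand, so exonic and intronic members were not separated and the planned motif scan of sites was not run. Density excludes 1 kb at each end of a gene. Shares have exact Clopper-Pearson 95% intervals. Differences were tested with Fisher's exact test (two-sided; SciPy 1.17.1) with Benjamini-Hochberg adjustment over 8 tests, 4 of them added after the data were seen; the procedure was checked on simulated sites.

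Named genes were the 10 with most members, the 10 with most per Mb among those with at least 3, up to 3 with most members and up to 2 of the longest without one per list, Tet2, and the genes of the 5 widest members and of the 5 densest windows of 50 kb. Ties within this rule were taken in order of symbol. Genes named beyond the rule, among them those with internal starts, were chosen after their values were seen. Alternatives changed merging, margin, overlap criterion, gene set and limits of distance, width and gene length. Of the 12 gene lists, 1 is not reported here.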

Additional observations from a re-analysis of the deposited data

How the results depend on the processing

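The count of members stayed between 4164 (5 kb margin) and 5912 (all annotated genes) over 7 alternatives. Their share of myeloid-only sites moved to 43.2% with a 0.5 kb margin, 30.5% with a 5 kb margin and 43.3% with all annotated genes, and the share of genes holding a member to 19.4% with a 0.5 kb margin and 13.0% with all annotated genes. The odds ratio for lying near the gene start did not pass with a 5 kb margin (1.10) or, chosen after seeing the data, without sites on a start window (1.14); it passed in the 7 other alternatives. The odds ratio of gene-end occupancy, which did not pass as reported, turned to 0.930 when AML sites within 1 kb counted as shared, again without passing. The differences in width, in neighbours within 10 kb and in annotated starts kept their direction and passed, by unadjusted p, in the 9, 10 and 4 alternatives run. Requiring no AML site within 1 kb left the number of genes with a member within 1.5 times in each of the 11 lists. No paired analysis was possible because the lists hold no value per library; for the same reason no replicate could be left out, and no stricter site threshold could be set, as sites carry no score. The motif scan in whole sites was not run. Depth is unknown, so sites near the limit of either list could not be told from clear ones.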
